A study of Caenorhabditis elegans with 22 samples.

Results

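The genes described here are 6 small-peptide genes of *Caenorhabditis elegans*: *fipr-22* (C37A5.2), *fipr-23* (C37A5.4), *fipr-24* (C37A5.8), C37A5.5, C37A5.6 and *fipr-26* (F53B6.8), out of 45460 genes in the deposited table. They were chosen by name from earlier results of these same data, in which their mRNA was higher in wild-type embryos at 500 mM NaCl and the increase was smaller in *ssu-1* and in *daf-16* mutants. The wild-type change and its loss in the mutants are therefore given as a description, and nothing is supported with them. In the RefSeq gene table all 6 lie on chromosome I. Only 5 of them lie at C37A5, and *fipr-26* lies elsewhere on the chromosome, next to *fip-6* (F53B6.9). C37A5.5 and C37A5.6 carry no fip or fipr name in that table and were kept because they neighbor the fipr genes.

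The fip genes (fungus-induced protein) of *C. elegans* were named for higher mRNA in worms infected with a fungus, and the fipr genes (FIP-related) for the likeness of their predicted products to those peptides. Many of the products are short and look like secreted antimicrobial peptides, although the activity of most has not been shown directly. SSU-1 is a cytosolic sulfotransferase of the ASJ sensory neurons, and DAF-16 is the FOXO transcription factor that insulin-like signaling keeps out of the nucleus. High external NaCl arrests the development of young *C. elegans*, and the study asked whether SSU-1 and DAF-16 were required for the change in gene expression at high NaCl.

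Whole embryos were kept for 3 h on plates with 50 mM NaCl, the standard level, or 500 mM NaCl, and mRNA was measured by RNA-seq in 22 libraries. Experiment 1 held 10 libraries, 2 of wild type (Bristol N2) and 2 of *ssu-1* mutants at 50 mM and 3 of each at 500 mM. Experiment 2 held 12 libraries, 3 of wild type and 3 of *daf-16* mutants at each NaCl concentration. The experiments were told apart by the library numbers in the labels. In experiment 2, 2 of the 3 wild-type 50 mM libraries (replicates 3 and 4) carry numbers set apart from those of the remaining 10. The labels do not say what the numbers stand for, so both splits are inferred. Comparisons with wild type at 50 mM of experiment 2, the wild-type NaCl change included, thus partly compare libraries of different number sets. The strain labels do not settle the genotype: for *ssu-1* they list the alleles *fc73*, *n5883*, *tm1117*, *gk266317*, *gk747222*, *gk876992* and *gk319712* together with the transgene *zIs356* (daf-16a/b-gfp under the *daf-16* promoter, with *rol-6*), and for *daf-16* the alleles *m26* and *mu86*. The growth protocol gives *ssu-1(fc73)* and *daf-16(m26)*, which are taken here as the genotypes. Nothing in the labels says whether the replicates came from separate cultures, so a p-value measures the spread between these libraries, which may be technical.

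Values are FPKM, the mapped fragments per kilobase of transcript scaled to the mapped fragments of the library. From the steps between low FPKM values the libraries' depths were estimated at 0.68 to 1.26 of the median library, with wild-type replicate 5 at 50 mM of experiment 2 the shallowest. The mRNA of *ssu-1* itself (Y113G7A.11) was between 1.78 and 2.99 FPKM in the 5 wild-type libraries of experiment 1 and between 0.37 and 1.74 in the 5 *ssu-1* libraries, with no overlap. The *daf-16* mRNA (R13H8.1) was not lower in *daf-16* mutants (149 to 156 FPKM against 74.0 to 91.2 in wild type at 50 mM), so it does not check that label. Of 14 embryonic marker genes 8 were at 1 FPKM or more in every library. The others, *end-1*, *end-3*, *tbx-37*, *tbx-38*, *ceh-51* and *pes-10*, were under 1 FPKM in at least 1 library, and *end-3* (0.16 to 0.94 FPKM) in all. Of 9 genes of adult or larval tissue, 7 were under 1 FPKM in every library, among them the yolk protein genes *vit-2*, *vit-5* and *vit-6*, the sperm genes *msp-3* and *msp-31* and the cuticle collagen genes *col-19* and *rol-6* (0.22 to 0.95 FPKM), and the remaining pair, *clec-87* and *fbn-1*, was present in all.

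The 6 genes were higher in wild-type embryos at 500 mM NaCl than at 50 mM, and their abundance at 500 mM differed widely. At 50 mM their wild-type means were 0 to 4.65 FPKM in experiment 1 and 2.35 to 18.3 FPKM in experiment 2. Together the 6 genes made up 0.00135% of the summed FPKM at 50 mM and 0.0574% at 500 mM in wild type of experiment 1. In wild type of experiment 2 the corresponding shares were 0.00494% and 0.328%. Of these genes *fipr-22* was the highest at 500 mM in each experiment, and its group mean ranked 571 of 19432 genes above 0 in experiment 1 and 130 of 19614 in experiment 2. The lowest, C37A5.6, ranked 7811 and 808 in the same groups. In *ssu-1* mutants the summed share was 0.00063% at 50 mM and 0.0072% at 500 mM, and in *daf-16* mutants 0.00212% and 0.012%. The embryos were sampled whole, so fewer cells expressing a gene and less mRNA per cell cannot be told apart.

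**Figure D1:**
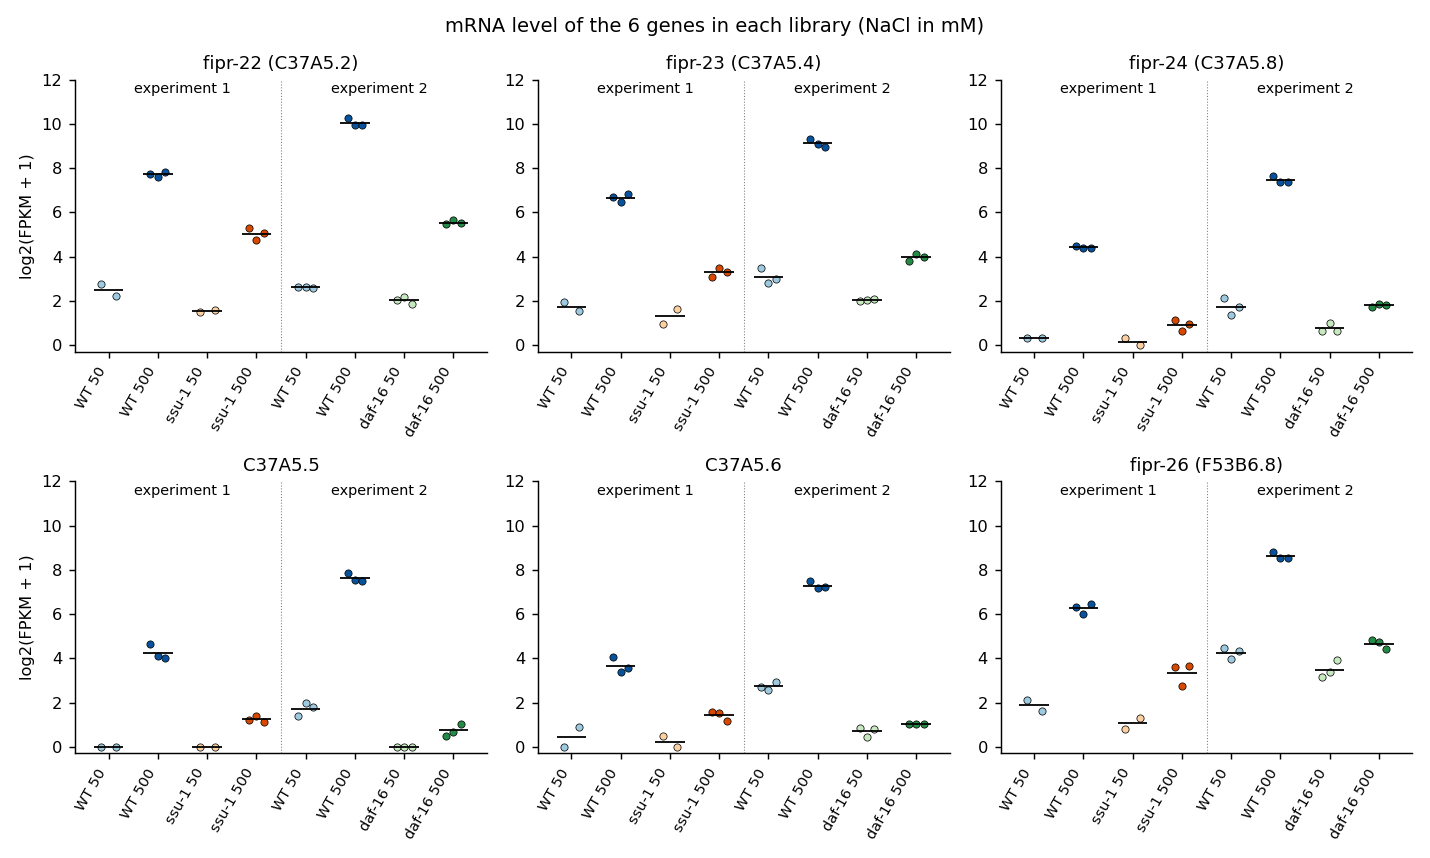
mRNA level of each of the 6 genes as log2(FPKM + 1) in each of the 22 libraries (points), by genotype and NaCl concentration in mM, with the group mean as a line and the experiments parted by a dotted line. In all 6 panels the 3 wild-type libraries at 500 mM stand above every other library of their experiment.

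The highest member, *fipr-22* (C37A5.2), encodes a predicted FIP-related peptide. Its FPKM in wild type of experiment 1 were 5.70 and 3.6 at 50 mM and 212, 194 and 228 at 500 mM. In *ssu-1* mutants they were 1.85 and 2.03 at 50 mM and 37.9, 26.1 and 32.6 at 500 mM. Thus the mutant libraries at 500 mM lay above all 50 mM libraries and below all wild-type libraries at 500 mM. In experiment 2 the wild-type values for *fipr-22* were 5.17, 5.26 and 4.99 at 50 mM and 1227, 982 and 977 at 500 mM. In *daf-16* mutants they were 3.09, 3.48 and 2.65 at 50 mM and 43.0, 48.9 and 44.97 at 500 mM. The wild-type ratio of the means at 500 and 50 mM was 45.4 and the *ssu-1* ratio 16.6, and in experiment 2 these ratios were 207 for wild type and 14.8 for *daf-16*.

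*fipr-23* (C37A5.4) showed the same order of groups at lower levels. Its wild-type FPKM in experiment 1 were 2.85 and 1.91 at 50 mM and 102, 88.6 and 112.6 at 500 mM, against 0.92 and 2.15, and 7.53, 10.1 and 9.05, in *ssu-1* mutants. In experiment 2 they were 10.4, 5.98 and 6.88 at 50 mM and 644, 553 and 501 at 500 mM, against 2.99, 3.17 and 3.21, and 12.9, 16.2 and 15.02, in *daf-16* mutants. The wild-type ratio of the means was 42.4 and the *ssu-1* ratio 5.79, and in experiment 2 these ratios were 73.1 for wild type and 4.71 for *daf-16*.

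*fipr-24* (C37A5.8) was nearly absent at 50 mM in experiment 1. Wild-type FPKM there were 0.27 and 0.24 at 50 mM and 21.5, 19.95 and 19.95 at 500 mM, and *ssu-1* libraries were at 0.24 and 0, and at 1.18, 0.56 and 0.92. Only 1 of the 7 libraries of experiment 1 outside wild type at 500 mM reached 1 FPKM, so the gene passed the filter on low values through the group in which it was high. In experiment 2 wild type was at 3.39, 1.58 and 2.34 FPKM at 50 mM and 200, 166 and 163 at 500 mM, and *daf-16* libraries were at 0.57, 1.01 and 0.57, and at 2.29, 2.65 and 2.56. The *daf-16* libraries at 500 mM thus overlapped wild type at 50 mM for *fipr-24*.

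C37A5.5, whose product has no assigned role in the sources used here, was listed at 0 in all 4 libraries of experiment 1 at 50 mM and in the 3 *daf-16* libraries at 50 mM. An FPKM of 0 can be a failed estimate as well as absent mRNA, so no ratio of means is given against those groups. Log2 changes of (FPKM + 1) against them are given further on, and their size depends on the 1 that was added. At 500 mM the wild-type values of C37A5.5 were 24.3, 16.1 and 15.2 FPKM in experiment 1, against 1.34, 1.67 and 1.19 in *ssu-1* mutants. In experiment 2 wild type was at 1.63, 2.93 and 2.49 FPKM at 50 mM and at 228, 185 and 179 at 500 mM, a ratio of means of 84.0. The *daf-16* libraries at 500 mM held 0.42, 0.61 and 1.06 FPKM of C37A5.5, all of them below wild type at 50 mM.

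C37A5.6, likewise without an assigned role in these sources, was at 0 and 0.88 FPKM in wild type at 50 mM of experiment 1 and at 15.6, 9.31 and 10.9 at 500 mM. The *ssu-1* libraries held 0.39 and 0 FPKM at 50 mM and 2.01, 1.90 and 1.22 at 500 mM. Experiment 2 gave 5.6, 4.91 and 6.73 FPKM in wild type at 50 mM and 180, 144 and 147 at 500 mM. In *daf-16* mutants C37A5.6 stayed near 1 FPKM at either concentration, with 0.78, 0.38 and 0.75 at 50 mM and 1.04, 1.05 and 1.03 at 500 mM. All 6 *daf-16* libraries were below the lowest wild-type library at 50 mM.

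*fipr-26* (F53B6.8), the member away from C37A5, had the highest level of the 6 in wild type at 50 mM of experiment 2. Its wild-type FPKM in experiment 1 were 3.37 and 2.12 at 50 mM and 78.8, 64.1 and 87.5 at 500 mM, against 0.75 and 1.47, and 11.2, 5.70 and 11.5, in *ssu-1* mutants. In experiment 2 wild type was at 21.02, 14.5 and 19.5 FPKM at 50 mM and 446, 373 and 365 at 500 mM. The *daf-16* libraries held 7.86, 9.35 and 14.1 FPKM of *fipr-26* at 50 mM and 27.6, 25.8 and 20.3 at 500 mM, and the latter overlapped wild type at 50 mM. The wild-type ratio of means was 28.0 in experiment 1 and 21.5 in experiment 2, against 8.54 in *ssu-1* and 2.35 in *daf-16* mutants.

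Over all genes tested, 25.3% were called higher at 500 mM in wild type of experiment 1 and 36.7% in experiment 2 (adjusted p under the threshold of 0.05, limma). A further criterion, a larger change in wild type than in the mutant, was met together with the first by 0.661% of genes for *ssu-1* and by 4.12% for *daf-16*. All 6 members met both criteria in each experiment, which only repeats the values that selected them and is no evidence about them. On the log2(FPKM + 1) scale, which understates the change of low genes, the members' wild-type changes were between 3.21 (C37A5.6) and 5.25 (*fipr-22*) in experiment 1 and between 4.36 (*fipr-26*) and 7.43 (*fipr-22*) in experiment 2.

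The level left in the mutants at 500 mM differed between the 6 genes. In *ssu-1* mutants the mean was 15.2% of the wild-type mean for *fipr-22*, 14.3% for C37A5.6, 12.3% for *fipr-26*, 8.80% for *fipr-23*, 7.57% for C37A5.5 and 4.33% for *fipr-24*. Neighbors in this order overlapped between libraries, for example 12.4 to 17.9% for *fipr-22* and 10.2 to 16.8% for C37A5.6, except for the last pair, with 6.43 to 9.03% for C37A5.5 and 2.74 to 5.77% for *fipr-24*. In *daf-16* mutants the order was *fipr-26* at 6.21%, *fipr-22* at 4.30%, *fipr-23* at 2.60%, *fipr-24* at 1.42%, C37A5.6 at 0.663% and C37A5.5 at 0.353%. Here the libraries of neighboring genes did not overlap, with 5.13 to 6.99% for *fipr-26*, 4.05 to 4.61% for *fipr-22*, 2.27 to 2.86% for *fipr-23*, 1.30 to 1.5% for *fipr-24*, 0.657 to 0.670% for C37A5.6 and 0.213 to 0.537% for C37A5.5. The mutants were measured in different experiments, with wild-type levels at 500 mM that were 5.03 to 13.1 times as high in experiment 2, so the percentages of *ssu-1* and *daf-16* stand side by side and were not compared.

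**Figure D2:**
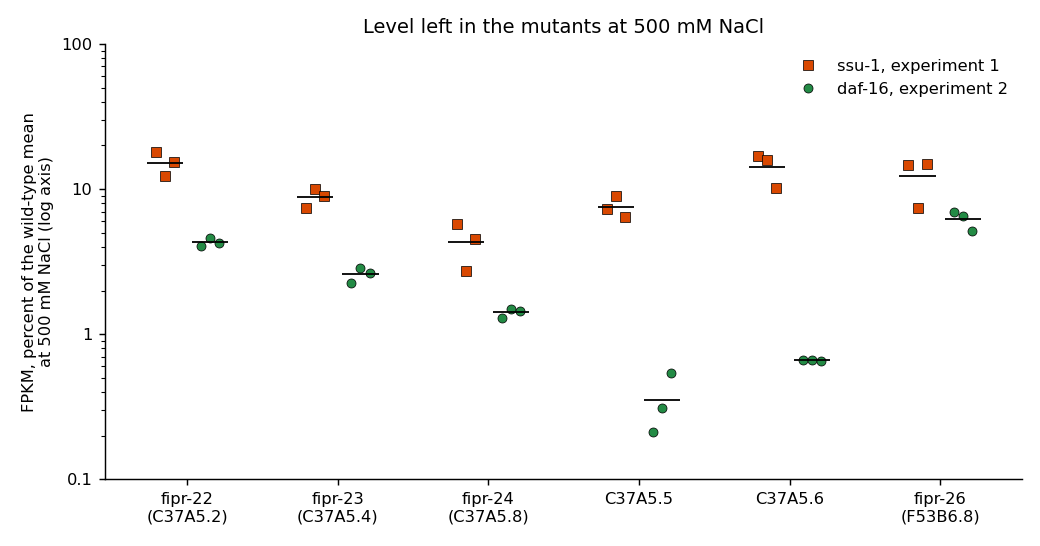
FPKM of each mutant library at 500 mM NaCl as a percentage of the wild-type mean at 500 mM in the same experiment (log axis), for the 6 genes, with squares for *ssu-1* (experiment 1), circles for *daf-16* (experiment 2) and a line at the mean. The *ssu-1* means run from 4.33% to 15.2%, and the *daf-16* means from 0.353% (C37A5.5) to 6.21% (*fipr-26*).

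Within the mutants themselves the 6 genes were still higher at 500 mM than at 50 mM. This contrast was not the one on which they were chosen, although its libraries also entered that choice, and it was tested by limma with Benjamini-Hochberg adjustment over all genes. In *ssu-1* mutants all 6 passed, as did 18.5% of all genes tested in this direction. This count is a description: *fipr-24* entered the test only through wild type at 500 mM, and C37A5.5 and C37A5.6 reached 1 FPKM elsewhere only in *ssu-1* libraries at 500 mM. The log2 change of (FPKM + 1) was 3.48 for *fipr-22* (SE 0.17, adjusted p = 6.73e-07), 2.28 for *fipr-26* (SE 0.27, adjusted p = 0.000172) and 2.00 for *fipr-23* (SE 0.20, adjusted p = 6.92e-05). For the genes that entered through their high groups it was 1.26 for C37A5.5 (adjusted p = 0.000625), 1.19 for C37A5.6 (adjusted p = 0.00856) and 0.75 for *fipr-24* (adjusted p = 0.0046), the last on values of at most 1.18 FPKM. Without *ssu-1* replicate 2 at 50 mM, the library in which C37A5.6 was listed at 0, its change was 0.95 and no longer passed (adjusted p = 0.0733).

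In *daf-16* mutants 6 of the 6 rose as well by limma, and 37.1% of all genes tested did. This count too is a description, because these libraries entered the choice of the genes, which also followed each other and may share reads. Here *fipr-22* rose by a log2 of 3.52 (SE 0.10, adjusted p = 1.36e-10), *fipr-23* by 1.92 (SE 0.16, adjusted p = 2.48e-07) and *fipr-26* by 1.18 (SE 0.19, adjusted p = 8.55e-05). *fipr-24* rose by 1.04 (adjusted p = 0.000135) and C37A5.5 by 0.75 (adjusted p = 0.00144). The change of C37A5.5 was from a listed 0 to at most 1.06 FPKM. For C37A5.6 the change was 0.33 (SE 0.14, adjusted p = 0.0445), on values near 1 FPKM. That call was lost without a filter on low FPKM (adjusted p = 0.0665), and on leaving out any of 6 of the 12 libraries (adjusted p between 0.0562 and 0.196). The lowest change then, 0.21, came without *daf-16* replicate 2 at 50 mM. The median change of the 6 was 1.11, against -0.06 over all genes.

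The genes *fipr-22* and *fipr-23* are separated by 1 gene on the chromosome, and the ratio of their FPKM differed between libraries. At 500 mM it was 2.02 to 2.19 in wild type of experiment 1 and 1.78 to 1.95 in wild type of experiment 2. In the mutants at 500 mM it was 2.59 to 5.03 (*ssu-1*) and 2.99 to 3.34 (*daf-16*), above every wild-type library. At 50 mM the genotypes overlapped in each experiment, with 1.88 to 2.00 in wild type and 0.944 to 2.01 in *ssu-1* mutants, and 0.50 to 0.88 in wild type and 0.826 to 1.10 in *daf-16* mutants. The ratio thus also differed between NaCl concentrations in wild type of experiment 2. Reads from similar genes can be divided between them in the estimation of FPKM, so the values of the single fipr genes, and this ratio, are uncertain to that extent.

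At 50 mM NaCl, without osmotic stress, the *daf-16* mutants had less mRNA of the 6 genes than wild-type embryos. All 6 passed the test, where 3.68% of all genes differed in either direction, and the 3 *daf-16* libraries lay below the 3 wild-type libraries for each gene. The genes were not chosen on this contrast, but its libraries entered that choice. The 6 also followed each other and may share reads, so they are not 6 separate results and the count is a description. The log2 difference of (FPKM + 1) was -2.04 for C37A5.6 (SE 0.14, adjusted p = 6.57e-06), -1.72 for C37A5.5 (SE 0.17, adjusted p = 0.000163) and -1.05 for *fipr-23* (SE 0.16, adjusted p = 0.00325). It was -0.98 for *fipr-24* (adjusted p = 0.0104), -0.60 for *fipr-22* (SE 0.10, adjusted p = 0.00879) and -0.78 for *fipr-26* (SE 0.19, adjusted p = 0.042). The median of the 6 was -1.01, and that of all genes 0.06. As percentages of the wild-type mean the *daf-16* means were 59.8% for *fipr-22*, 57.0% for *fipr-26*, 40.4% for *fipr-23*, 29.4% for *fipr-24* and 11.1% for C37A5.6, while C37A5.5 was listed at 0.

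These calls at 50 mM were not equally firm. Without *daf-16* replicate 3 at 50 mM the adjusted p was 0.0504 for *fipr-22* and 0.0579 for *fipr-24*. The call for *fipr-26* was lost on leaving out any of 10 of the 12 libraries (adjusted p between 0.0518 and 0.169). It was also lost without a filter on low FPKM (adjusted p = 0.0727) and without the trend in limma (adjusted p = 0.0566). Leaving out the 2 wild-type libraries with numbers set apart leaves 1 wild-type library at 50 mM, the shallowest of all, which the fit then assumes to vary like the other groups. In that fit 6 of 6 passed, which is no check of the spread in wild type. The summed levels of 5 epidermal markers, 202 to 285 FPKM in wild type and 271 to 277 in *daf-16* mutants at 50 mM, overlapped, as did those of the 14 embryonic markers, 205 to 287 and 223 to 241.

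In *ssu-1* mutants at 50 mM none of the 6 passed the test against wild type, where 0.646% of all genes did. By limma 2 of the 6 had an unadjusted p under 0.05, and 5 of 6 were lower, with C37A5.5 listed at 0 throughout. The log2 difference was -0.92 for *fipr-22* (SE 0.18, adjusted p = 0.0551) and -0.83 for *fipr-26* (SE 0.30, adjusted p = 0.317), and for both the *ssu-1* libraries lay below the wild-type libraries. It was -0.44 for *fipr-23* (SE 0.22), -0.22 for C37A5.6 (SE 0.31) and -0.17 for *fipr-24* (SE 0.17), with overlapping libraries. With 2 libraries a group these values do not show that wild type and *ssu-1* were alike. The value for *fipr-22* lay close to the threshold, and it passed without wild-type replicate 2 at 50 mM (adjusted p = 0.0151), without *ssu-1* replicate 2 at 500 mM (adjusted p = 0.0374) and under 4 other settings.

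**Figure D3:**
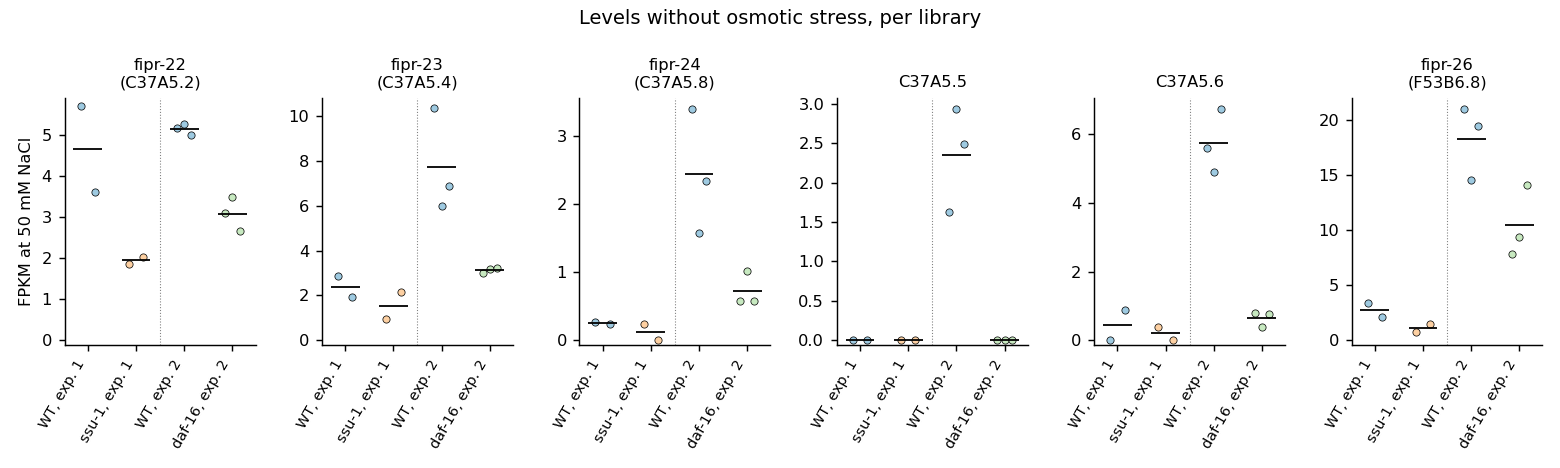
FPKM of the 6 genes at 50 mM NaCl in each library (points; linear axes that differ between panels) with the group mean as a line, experiment 1 left and experiment 2 right of the dotted line. In experiment 2 the 3 *daf-16* libraries lie below the 3 wild-type libraries in each of the 6 panels.

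Wild-type embryos at 50 mM also differed between the experiments. In experiment 2, 5 of the 6 genes were higher than in experiment 1, against 66.1% of all genes that differed in either direction, so a difference was common in this comparison. The log2 difference was 2.37 for *fipr-26* (SE 0.19, adjusted p = 2.7e-06), 2.29 for C37A5.6 (SE 0.26, adjusted p = 1.93e-05), 1.72 for C37A5.5 (SE 0.21, adjusted p = 3.23e-05), 1.42 for *fipr-24* (SE 0.18, adjusted p = 4.75e-05) and 1.35 for *fipr-23* (SE 0.20, adjusted p = 0.000116). For *fipr-22* it was 0.15 (SE 0.15, adjusted p = 0.413), although the call was gained without wild-type replicate 1 of experiment 1 (adjusted p = 0.0304), and its sign turned to -0.11 after quantile normalization. At 500 mM *fipr-22* was 5.03 times as high in experiment 2 as in experiment 1, *fipr-26* 5.14 times, *fipr-23* 5.6 times, *fipr-24* 8.61 times, C37A5.5 10.7 times and C37A5.6 13.1 times. The experiments also differed in marker levels at 50 mM, with 640 to 694 FPKM for the 5 epidermal markers in experiment 1 and 202 to 285 in experiment 2. The sum of 4 intestinal markers was 909 to 1220 against 2890 to 4350 FPKM. That sum was mostly *asp-1* (580 to 4310 FPKM over all libraries), while *elt-2*, *elt-7* and *ges-1* were each at most 27.1 FPKM. The part of the marker levels in the difference was not tested. The experiment cannot be told apart from whatever else differed along with it.

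Marker levels moved with NaCl too. In experiment 2 the epidermal sum was 496 to 528 FPKM in wild type and 570 to 609 in *daf-16* mutants at 500 mM, above its 50 mM values in either genotype, and the intestinal sum was lower, at 1130 to 1300 and 1000 to 1110 against 2890 to 4350 and 3070 to 3140. In experiment 1 the epidermal sum was 640 to 694 FPKM at 50 mM and 579 to 653 at 500 mM in wild type. The intestinal sum there was 909 to 1220 FPKM at 50 mM and 641 to 764 at 500 mM, and the adult and larval sum 68.4 to 92.0 and 114 to 220, without overlap. In *ssu-1* mutants the intestinal sum was 758 to 884 and 698 to 758 FPKM, and the adult and larval sum 105 to 109 and 106 to 123. All 5 epidermal and 4 intestinal markers were at 1 FPKM or more in every library. The intestinal sum was mostly *asp-1* (580 to 4310 FPKM over all libraries), and *elt-2*, *elt-7* and *ges-1* were each at most 27.1 FPKM. The adult and larval list, of which only *clec-87* and *fbn-1* were above 1 FPKM, summed to 19.6 to 82.7 FPKM in wild type at 50 mM and 152 to 171 at 500 mM in experiment 2, and to 22.3 to 36.5 and 208 to 315 in *daf-16* mutants. The part of these shifts in the NaCl changes of the 6 genes was not tested.

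Across the 22 libraries the 6 genes followed each other, with Pearson correlations of log2(FPKM + 1) between 0.839 and 0.982 over the 15 pairs. The points share NaCl, genotype and experiment, and the correlations are a description. Of 15050 genes compared, all at 1 FPKM or more in at least 2 libraries, the 8 non-members whose pattern was most like the mean of the 6 were *dhs-31* (r = 0.988), *mtl-1* (r = 0.981), R03H10.1 (r = 0.981), *ugt-6* (r = 0.976), *add-2* (r = 0.976), R05D7.2 (r = 0.975), *col-108* (r = 0.974) and *hsp-12.6* (r = 0.973). They include a short-chain dehydrogenase gene (*dhs-31*), a metallothionein gene (*mtl-1*), a glucuronosyltransferase gene (*ugt-6*), an adducin gene (*add-2*), a collagen gene (*col-108*) and a small heat shock protein gene (*hsp-12.6*). The closest, *dhs-31*, had group means of 0.92 FPKM at 50 mM and 11.5 at 500 mM in wild type, and 0.695 and 3.09 in *ssu-1* mutants. In experiment 2 *dhs-31* had 3.39 and 42.9 FPKM in wild type, and its *daf-16* means were 2.48 and 3.92. Of the 8 genes only R05D7.2 is on chromosome I.

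Along the chromosome the 5 genes at C37A5 lie in the order C37A5.6, C37A5.5, *fipr-23*, C37A5.3, *fipr-22* and *fipr-24*, with C37A5.3 the only protein-coding gene between them that is not of the 6. C37A5.3 was at 2.47 and 1.08 FPKM in wild type at 50 mM and at 19.99, 15.6 and 18.8 at 500 mM in experiment 1, and at 9.70, 7.80 and 6.69 in *ssu-1* mutants at 500 mM. In experiment 2 C37A5.3 was at 2.77, 1.97 and 1.69 FPKM and at 74.2, 64.6 and 59.3 in wild type, and at 15.4, 15.5 and 14.3 in *daf-16* mutants at 500 mM. So this gene too was highest in wild type at 500 mM, and its log2 change in wild type was 2.82 (SE 0.25) in experiment 1 and 4.42 (SE 0.16) in experiment 2. In the mutants C37A5.3 changed by 1.93 (SE 0.25, *ssu-1*) and 3.15 (SE 0.16, *daf-16*). Its wild-type change exceeded that of *daf-16* mutants by 1.28 (adjusted p = 0.00411, limma). For *ssu-1* the difference was 0.90 and did not pass (adjusted p = 0.287).

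The flanking genes had smaller changes. On the side of C37A5.6 the nearest gene, *kal-1* (anosmin in mammals), had a log2 change in wild type of 0.01 (SE 0.07) in experiment 1 and 1.25 (SE 0.11) in experiment 2. On the side of *fipr-24* the nearest gene, *best-8* (C37A5.1), of the bestrophin chloride channel family, had changes of -0.20 (SE 0.15) and -0.02 (SE 0.11). The next genes outward, *mys-2* and *fld-1* on one flank and C37A5.7 and C37A5.11 on the other, had wild-type changes between -1.02 and 1.17. Beside *fipr-26* the gene *fip-6* (F53B6.9) was at 17.4 and 20.7 FPKM at 50 mM and 33.7, 25.2 and 32.3 at 500 mM in wild type of experiment 1, and at 72.2, 55.4 and 65.5, and 27.7, 29.2 and 19.97, in wild type of experiment 2. *fip-6* rose in the first (log2 0.64, SE 0.15, adjusted p = 0.00523, limma) and fell in the second (log2 -1.31, SE 0.17, adjusted p = 2.69e-05), unlike *fipr-26*.

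**Figure D4:**
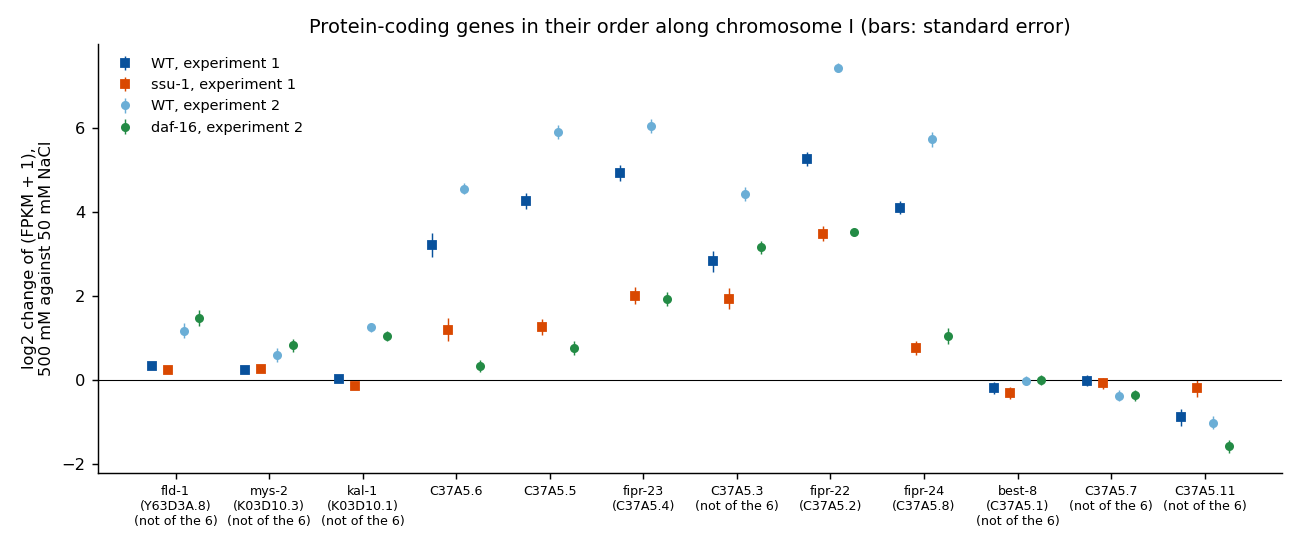
log2 change of (FPKM + 1) from 50 to 500 mM NaCl for the protein-coding genes at C37A5 in their order along chromosome I (not to scale), in wild type and mutant of each experiment, with bars of 1 standard error. The 5 members and C37A5.3 between them stand above the 3 genes on each side in wild type, with *kal-1* at 0.01 and 1.25 and *best-8* at -0.20 and -0.02.

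Of the other family genes, taken by name, most of those that could be tested fell at 500 mM. The gene table holds 36 fip and fipr genes, of which 4 are members and 32 are not, and 6 of the 32 were listed at 0 in every library. In experiment 1, 13 of the 32 could be tested in wild type, and 11 fell and 2 rose at 500 mM, while over all genes 26.0% fell. In experiment 2, 17 could be tested, and 14 fell, 1 rose and 2 did not pass, where 33.5% of all genes fell. Their median log2 change in wild type was -1.36 in experiment 1 (from -3.32 to 1.35) and -1.86 in experiment 2 (from -6.20 to 2.90), and the medians of all genes were -0.01 and 0.06. In all, 10 fell in both experiments and only *fipr-13* rose in both. The number that rose was 1 without wild-type replicate 1 at 50 mM in experiment 1, and 2 without wild-type replicate 5 at 50 mM in experiment 2. In experiment 2 *fipr-10* and *fipr-11* reached 1 FPKM only at 50 mM, and in experiment 1 so did *fipr-9*. They entered the test through the NaCl concentration at which they were high. The counts of genes that fell, here and in the mutants, are therefore a description.

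Among those that fell, *fipr-1* (F23H12.8) had the largest change. It was at 43.1 and 30.3 FPKM at 50 mM and 3.08, 1.29 and 4.54 at 500 mM in wild type of experiment 1, a log2 change of -3.32 (SE 0.33, adjusted p = 4.04e-05, limma). In experiment 2 *fipr-1* went from 217, 126 and 232 FPKM to 1.99, 2.36 and 0.61, a log2 change of -6.20 (SE 0.30, adjusted p = 3.1e-09), with no overlap between the NaCl concentrations in either experiment. The other 8 named here, *fip-5*, *fipr-6*, *fipr-2*, *fipr-8*, *fipr-9*, *fipr-7*, *fipr-21* and *fipr-4*, had log2 changes in wild type between -2.10 (*fipr-6*) and -1.09 (*fipr-4*) in experiment 1 and between -3.98 (*fip-5*) and -1.86 (*fipr-4*) in experiment 2, each past the threshold. In *ssu-1* mutants 6 of the 13 fell, where 18.1% of all genes did, 2 rose and 5 did not pass (median log2 change -0.58). In *daf-16* mutants 15 of the 17 fell, where 41.1% of all genes did, 1 rose and 1 did not pass (median -2.04). Between the experiments the wild-type change differed for 9 of 11 other family genes, *fip-6* among them, and for 31.6% of all genes, by limma's interaction test. All of the 11 but *fip-6* were named for the size of their wild-type change in either experiment, which favors such a difference. The 11 leave out *fipr-10* and *fipr-11*, which were named only for how they entered the test. The count is therefore a description and was not compared with the share of all genes.

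The gene *fipr-13* (F57A8.8) was the only tested family gene outside the 6 that rose in wild type of both experiments. It was at 1.00 and 0.81 FPKM at 50 mM and 4.95, 2.47 and 4.52 at 500 mM in experiment 1, and at 2.10, 2.24 and 5.24, and 31.3, 27.6 and 27.2, in experiment 2. At 500 mM *fipr-13* was at 2.49, 2.13 and 1.78 FPKM in *ssu-1* mutants and at 5.48, 2.21 and 3.43 in *daf-16* mutants. Its wild-type change exceeded that of *daf-16* mutants by a log2 of 1.95 (SE 0.41, adjusted p = 0.00887, limma), and for *ssu-1* the difference was 0.56 (SE 0.38, adjusted p = 0.534). For *ssu-1*, 0 of the 2 other family genes that rose in wild type passed this test, and 0 had an unadjusted p under 0.05 in limma. So 1 of 17 other family genes met the criteria of a rise in wild type and a larger change there in experiment 2, where 4.12% of all genes did, and 0 of 13 in experiment 1, where 0.661% did, which is near the share of all genes.

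**Figure D5:**
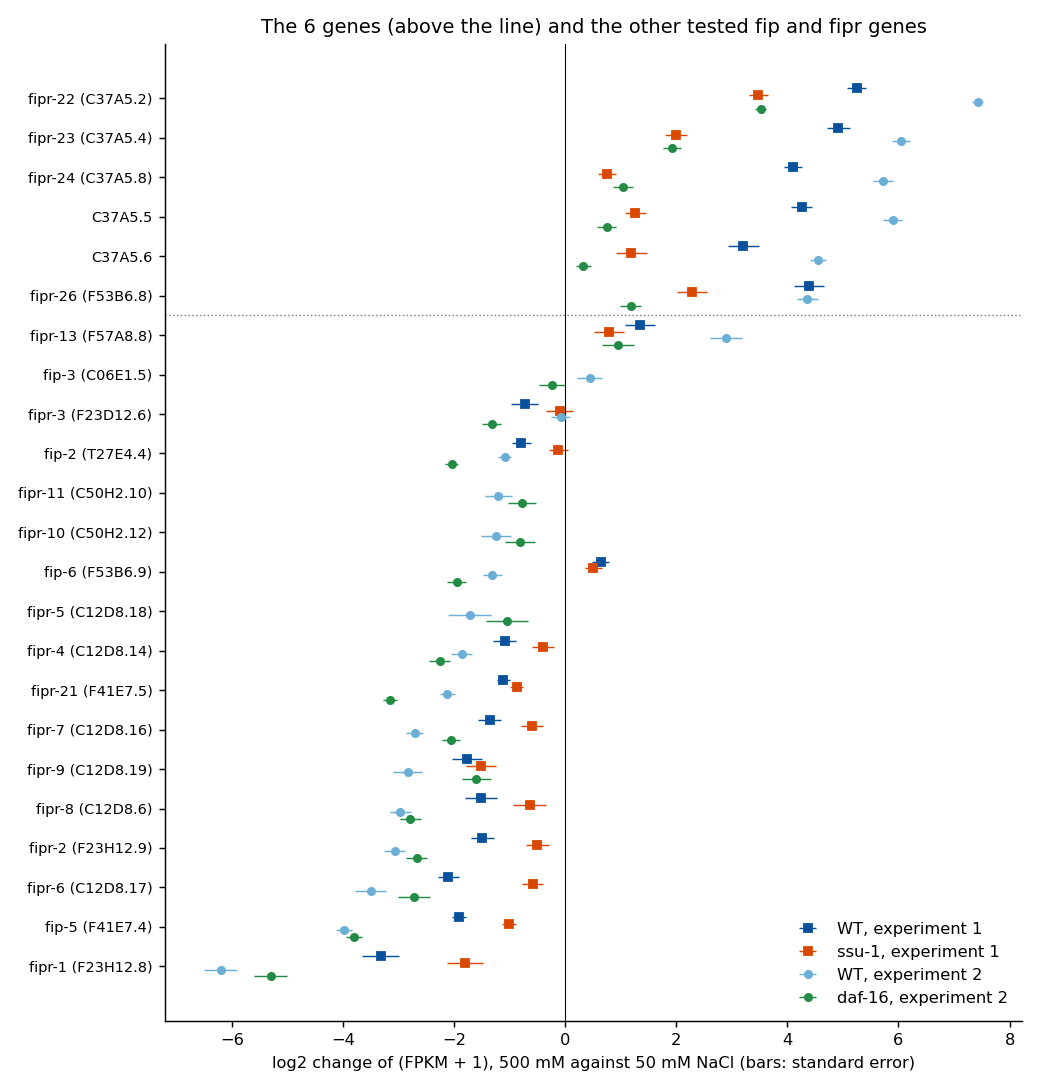
log2 change of (FPKM + 1) from 50 to 500 mM NaCl, with bars of 1 standard error, for the 6 genes (above the dotted line) and the 17 other fip and fipr genes tested in experiment 2, of which 13 have values in experiment 1. The 6 genes lie right of 0 in all 4 contrasts, and *fipr-13* is the only other gene that does, while *fipr-1* reaches -6.20 in wild type of experiment 2.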

How the data were processed

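The deposited FPKM per gene and library were made by the authors with RSEM 1.2.15 and Bowtie 1.0.1 on the ce10 assembly, from paired-end reads of strand-specific libraries. FPKM do not keep the read counts, so the depth was only estimated, from the steps between low values, with an error of up to 0.684% on simulated data. Summed FPKM per library were between 736577 and 877080. Of 45461 rows, 1 that names no gene was left out. Symbols, chromosomes and gene order came from a RefSeq table of another assembly (WBcel235, 44079 identifiers matched), so no coordinates are given. No pair of libraries held identical values.

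Tests used limma 3.58.1 (with trend) in R 4.3.3 on log2(FPKM + 1), on genes at 1 FPKM or more in at least 2 libraries of the fit, 13924 genes in experiment 1, 14868 in experiment 2 and 14638 in the fit of all wild-type libraries. The groups of each experiment shared an estimate of the spread, and p-values were adjusted by the Benjamini-Hochberg method with a threshold of 0.05. On simulated data the tests at 50 mM recovered 86 of 100 genes changed 2-fold in experiment 1 and 98 of 100 in experiment 2. The wild-type means of the 6 members at 50 mM in experiment 1 were 0 to 4.65 FPKM. Recovery at such low levels was not tested separately. Alternatives were a pseudocount of 0.1, no filter, quantile normalization, rescaling to the same total, no trend, the replicate number as a block, and leaving out libraries. The members and gene lists were chosen with earlier results of these data known. Besides the 6 members the text names the other fip and fipr genes past the threshold in wild type, at most 10 by the size of the change, 3 neighbors on each side, and the 8 genes most like the members. Other genes named are *fip-6*, as a neighbor, *fipr-10* and *fipr-11*, for how they entered the test, and the markers. No column was left without a sample.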

Additional observations from a re-analysis of the deposited data

Results flagged for a closer look

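For 9 of 11 fip and fipr genes outside the 6, the wild-type change at 500 mM NaCl differed between the experiments by limma's interaction test. The fit held all 11 wild-type libraries, and 31.6% of all genes differed. Except for *fip-6*, a neighbor, these 11 genes were named for a large wild-type change in either experiment, and *fipr-10* and *fipr-11* are not among them. That choice favors a difference, so the count is a description and was not compared with the share of all genes. The difference of the log2 changes, experiment 2 minus experiment 1, was 1.55 for *fipr-13* (F57A8.8), which rose more in experiment 2. It was negative for the remaining 8, with -2.89 for *fipr-1* (F23H12.8), -2.07 for *fip-5* (F41E7.4), -1.95 for *fip-6* (F53B6.9), -1.58 for *fipr-2* (F23H12.9), -1.46 for *fipr-8* (C12D8.6), -1.40 for *fipr-6* (C12D8.17), -1.36 for *fipr-7* (C12D8.16) and -1.01 for *fipr-21* (F41E7.5). The gene *fip-6* rose in experiment 1 and fell in experiment 2, and the others fell in both. The experiments were sequenced under different library numbers, and what differed between them was not tested.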

How the results depend on the processing

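Of the counts of genes past the threshold, 148 recomputed values stayed within 1.5 times of the value in the report and 8 did not, and of the values for single genes 637 kept their direction and side of the threshold and 28 lost the call. None of these turned its direction, and the only sign that turned among the tests of the 6 genes was that of *fipr-22* between the experiments at 50 mM, which did not pass either way. The count of the 6 genes that differed between *ssu-1* and wild type at 50 mM, 0 in the report, was 1 (*fipr-22*) with a pseudocount of 0.1, with quantile normalization, with rescaling to the same total and with the replicate block, with adjusted p between 0.0298 and 0.0445, and 0 to 1 on leaving out each library. On leaving out each library, the other family genes that rose in wild type numbered 1 to 2 in experiment 1 and 1 to 2 in experiment 2, with 1 in experiment 1 without wild-type replicate 1 at 50 mM and 2 in experiment 2 without wild-type replicate 5 at 50 mM. Most of the lost calls concern the difference between the wild-type and *ssu-1* changes of C37A5.6 and *fipr-26*, which entered the choice of the genes and is not used as a test. Rescaling to the same total moved the median change of all genes in *daf-16* mutants from -0.06 to 0.10. The cause of these shifts was not tested.

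The libraries' deviations from their group means correlated between -0.40 and 0.28 within a replicate number. Libraries of different numbers were not set beside them, so whether the numbers pair the libraries was not settled. With the replicate block the change of C37A5.6 in *daf-16* mutants was 0.33 and did not pass (adjusted p = 0.103), and 6 of 6 genes still passed in *ssu-1*. No paired analysis was possible for *daf-16* against wild type at 50 mM or for wild type between experiments because they share fewer than 2 replicate numbers there or the numbers are nested in the genotype. FPKM near 1 or listed at 0 limit what can be said of C37A5.5, C37A5.6 and *fipr-24*.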
